A study of Mus musculus with 6 samples.

Results

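TDP-43, the protein made from Tardbp, binds GU-rich stretches of RNA in the nucleus and controls the splicing, stability and export of many transcripts, its own among them. It belongs with a group of RNA-binding proteins that are studied together because they share partners, enter the same RNA granules and are altered in the same neurodegenerative diseases. EWSR1 and TAF15 are FET proteins, which couple transcription to RNA processing, MATR3 is a protein of the nuclear matrix that also regulates splicing, and TIA1, TIAL1, ATXN2 and G3BP1 are proteins of stress granules, the cytoplasmic assemblies that form when translation initiation stops. The 8 genes described here, Tardbp, Ewsr1, Taf15, Matr3, Tia1, Tial1, Atxn2 and G3bp1, were chosen by name, and all 8 were found among the 39253 genes of the deposited table and among the 16632 genes that were tested. The question was whether the related genes were higher where Tardbp was lower.

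The series holds 3 libraries from Tardbp cKO mice and 3 from WT mice, each made from whole testis of a C57BL/6 male at postnatal day 12 (PND12), when the first wave of germ cells has entered meiosis. The paper describes its cKO as a floxed Tardbp allele over a null allele, with iCre recombinase driven by the Stra8 promoter, so that exon 3 is removed from the floxed allele in spermatogonia and their progeny, while the null allele is carried by every cell. WT mice, without the floxed allele, the null allele or iCre, were the controls here, so the effects of these alleles and of iCre cannot be told apart here. By the labels, cKO 2 and cKO 3 form batch 1, and batch 2 consists of cKO 1 and the 3 WT libraries, with no statement of what the batches were.

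Levels are given as CPM, the estimated count of a gene scaled to a fixed library size, with library sizes adjusted by the trimmed mean of M values (TMM). The cKO libraries held 31713911 to 43371284 estimated counts and the WT libraries 30028685 to 33099581. For each difference the quasi-likelihood test in edgeR was run over all 16632 genes, with batch and genotype in the model, and a gene was called where its Benjamini-Hochberg adjusted p over these genes was under 0.05. Batch 1 contains no WT library, so the genotype term of this model is the difference of cKO 1 from the 3 WT libraries, and the batch term is the difference of cKO 2 and cKO 3 from cKO 1. A fit with genotype only, which uses all 3 cKO mice but does not separate batch from genotype, is given beside it. The samples are separate mice by their labels, and p-values refer to these 6 libraries only. With the batch term, cKO 1 is the only cKO library of batch 2 and is fitted exactly. The spread behind those p-values thus comes from the WT libraries and from cKO 2 and cKO 3. It holds no measure of variation between mice like cKO 1.

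Tardbp was lower in every cKO library than in every WT library. Its level was 255, 112 and 137 CPM in cKO 1, cKO 2 and cKO 3, against 318, 334 and 312 CPM in WT 1, WT 2 and WT 3. The cKO mean was 168 ± 76.7 CPM and the WT mean 321 ± 11.1 CPM (SD, n = 3 each). The groups did not overlap, and the cKO libraries differed from each other far more than the WT libraries did. Expressed against the WT mean, cKO 1 of batch 2 kept 79.5% of the Tardbp level, and cKO 2 and cKO 3 of batch 1 kept 34.8% and 42.5%.

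With batch and genotype in the model the log2 fold change of Tardbp was -0.33 (standard error 0.125, 95% interval -0.62 to -0.04), which did not pass after adjustment (edgeR adjusted p = 0.107). With genotype only it was -0.94 (95% interval -1.61 to -0.27) and passed (edgeR adjusted p = 0.0416). The genotype-only call was lost with any WT library or either of cKO 2 and cKO 3 left out (edgeR adjusted p between 0.0989 and 0.133). It was kept without cKO 1, where the log2 fold change was -1.39 (edgeR adjusted p = 3.61e-05). With the batch term, Tardbp passed without cKO 2 (edgeR adjusted p = 0.0445), without cKO 3 (edgeR adjusted p = 0.0428) and in DESeq2 (adjusted p = 0.0468). In these fits the value is still cKO 1 against WT, so leaving out cKO 2 or cKO 3 cannot change it, and they are not separate evidence. In the batch 2 libraries alone, fitted without a batch term, the log2 fold change was -0.32.

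The deposited count of Tardbp covers the whole gene, which lies on chromosome 4 from 148696839 to 148711490 on the minus strand of GRCm39. Its canonical GENCODE transcript has 6 exons and 7491 bases. By this numbering exon 3 runs from 148706406 to 148706569, is 164 bases long, all of them coding, and makes up 2.19% of the transcript. Its length leaves a remainder of 2 when divided into codons. Exon 6, which holds the end of the coding sequence and the 3′ untranslated region, has 6410 bases and makes up 85.6% of the transcript. A transcript that lacks exon 3 therefore still adds reads to the gene's count, and the count does not measure excision. The coordinates of the floxed exon are not given in the sources used here, so its match to exon 3 of this transcript rests on the exon number alone. The reference sequence at the ends of that exon is shown, with exon bases in capitals and intron bases in lower case, at chr4:148706555-148706584 and chr4:148706391-148706420.
Tardbp exon 3 start: ctttgctttgtttagATAACAAAAGGAAAA
Tardbp exon 3 end: GTTCTTATGGTTCAGgtaagcttcattctg

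TDP-43 is known to bind its own 3′ untranslated region and UG repeats in general, so the letters TGTGTG were searched on the gene's strand, with overlapping matches counted. The Tardbp transcript had 6 matches, all in exon 6, at 5 places that begin 808, 1125, 4486, 4680 and 5716 bases past the coding end. At least as many matches were held by 17.0% of the 15637 canonical transcripts of tested genes, and 74.1% held at least 1. The 5 places are printed with the matched run in capitals. They lie on the minus strand of chromosome 4 at 148701896-148701925, 148701579-148701608, 148698217-148698246, 148698024-148698053 and 148696988-148697017.
Tardbp place 1: cttttgaaacctTGTGTGggattgatggtg
Tardbp place 2: aatgctgtatggTGTGTGttctcctctgtt
Tardbp place 3: tcctcctatagTGTGTGTGgacagcccaca
Tardbp place 4: ctggacaggactTGTGTGcaggaggacatg
Tardbp place 5: ggtggggagaggTGTGTGaataaccatttt
A match describes the letters only. Place 3 held a run of 8 bases, and over the whole gene, introns included, no longer TG run was found. Across the gene TGTGTG occurred 1.09 times per kb, and 72.1% of the 15637 genes had a higher density.

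**Figure D1:**
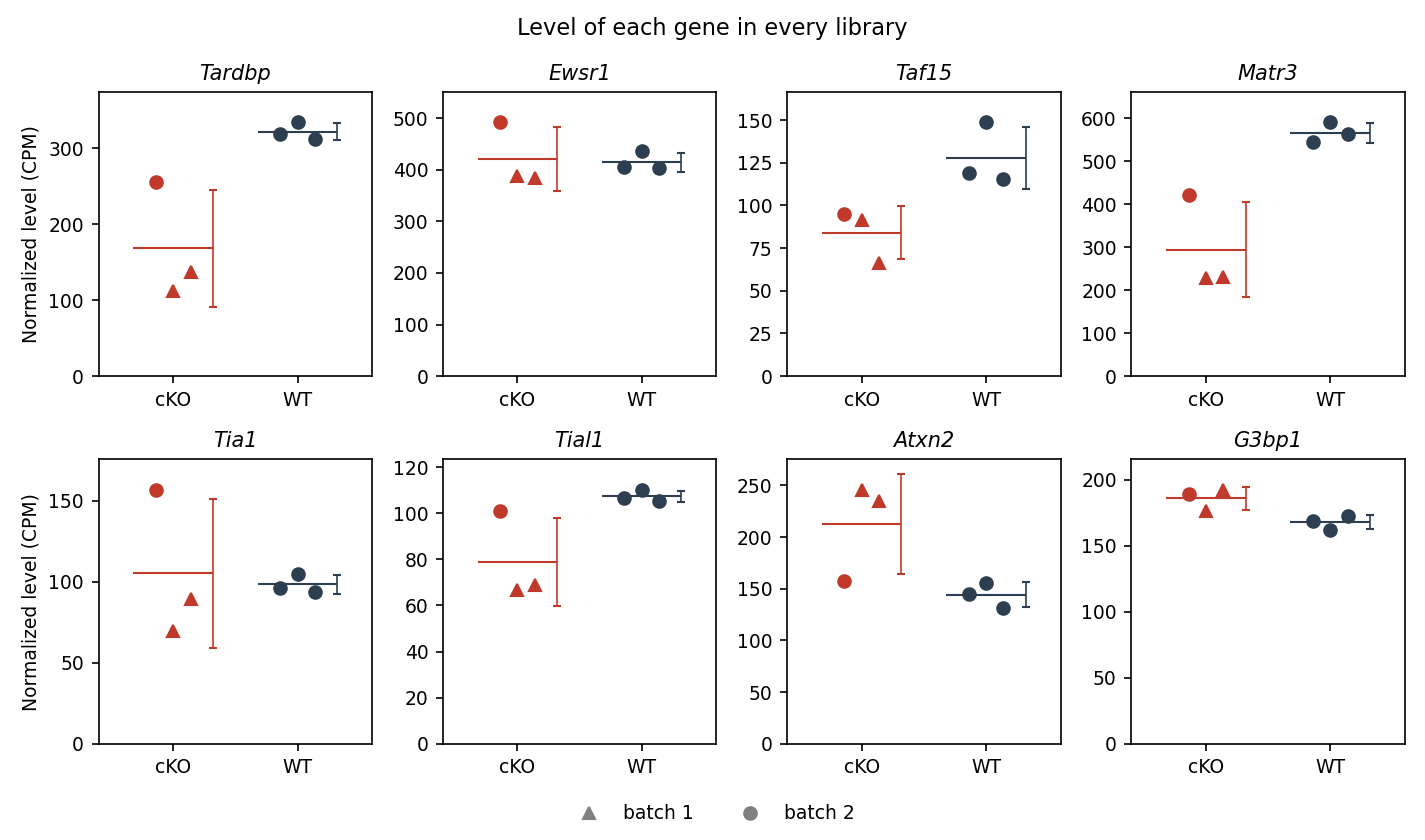
Normalized level in CPM of each of the 8 genes in the 3 cKO and 3 WT libraries, with a triangle for batch 1 and a circle for batch 2, a horizontal line for the group mean and a bar for the SD. For Tardbp the batch 2 cKO library sits at 255 CPM and both batch 1 cKO libraries sit at 112 and 137 CPM, all below the lowest WT library at 312 CPM.

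Across the 8 genes, 2 of 8 passed with batch and genotype in the model, against 16.2% of all tested genes. Matr3 was the only member called lower, where 9.24% of all genes were lower, and Tia1 the only member called higher, where 6.91% of all genes were higher. Both calls were lost when WT 1, WT 2 or WT 3 was left out (edgeR adjusted p between 0.0596 and 0.0746). In those fits 855, 12 and 424 of all 16632 genes passed, against 2687 with all libraries. With genotype only, 4 of 8 passed, against 33.8% of all genes: Tardbp, Taf15 and Matr3 were lower and Atxn2 was higher. None of these 4 calls held with any WT library or either of cKO 2 and cKO 3 left out. Of all 16632 genes, 627, 1 and 430 passed without WT 1, WT 2 and WT 3. With cKO 2 left out 2448 passed, and with cKO 3 left out 1839, against 5624 with all libraries. Without cKO 1, in the comparison of the batch 1 cKO libraries with WT, 6 of 8 were called, against 61.8% of all genes. Tial1 and Tia1 were then lower beside these 4. In 6 of 8 the cKO and WT libraries did not overlap, against 52.8% of all genes: 4 were lower in all cKO libraries, against 27.1%, and 2 were higher, against 25.8%. The median log2 fold change over the 8 members was 0.02 with the batch term and -0.21 without it, and over all tested genes 0.01 and 0.04.

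Among the FET genes, neither was called higher. Ewsr1, whose product binds RNA and nascent transcripts, was at 492, 388 and 383 CPM in cKO 1, cKO 2 and cKO 3, against 404, 436 and 404 CPM in the WT libraries. The groups overlapped, since cKO 1 was above the WT range and cKO 2 and cKO 3 were below it. The log2 fold change was 0.25 (standard error 0.0881, 95% interval 0.04 to 0.45, edgeR adjusted p = 0.0953) with the batch term and 0.02 (95% interval -0.30 to 0.34, edgeR adjusted p = 0.909) with genotype only. In DESeq2 with the batch term Ewsr1 passed (adjusted p = 0.0432), and without cKO 1 its log2 fold change was -0.12 (edgeR adjusted p = 0.162).

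Taf15, a FET protein gene whose product associates with the general transcription factor TFIID, was at 94.8, 91.3 and 66.1 CPM in the cKO libraries, against 119, 149 and 116 CPM in the WT libraries. All cKO libraries were below all WT libraries, with cKO 3 the lowest, and cKO 1 was close to cKO 2. Its log2 fold change was -0.43 (standard error 0.209, 95% interval -0.92 to 0.06, edgeR adjusted p = 0.186) with the batch term and -0.60 (95% interval -1.01 to -0.19, edgeR adjusted p = 0.0364) with genotype only. Taf15 had the widest spread of the 8 genes in WT testes, a coefficient of variation of 14.3%, while that of Tial1, the narrowest, was 2.27%.

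Matr3, the nuclear matrix protein gene, was lower in every cKO library than in every WT library, as Tardbp was. It was at 422, 229 and 232 CPM in cKO 1, cKO 2 and cKO 3, against 544, 590 and 563 CPM in the WT libraries. The lowest values were again those of batch 1, and the cKO libraries held 74.6%, 40.5% and 41.0% of the WT mean. The log2 fold change was -0.42 (standard error 0.0905, 95% interval -0.64 to -0.21, edgeR adjusted p = 0.0277) with the batch term and -0.94 (95% interval -1.51 to -0.38, edgeR adjusted p = 0.0260) with genotype only. Matr3 passed with and without the batch term in edgeR, the only member to do so, but no longer after any WT library was left out from either fit (edgeR adjusted p between 0.0596 and 0.0907). Snhg4, a non-coding gene that overlaps Matr3 on the same strand, reached at most 8.38 CPM in the 6 libraries, far below the level of Matr3.

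Of the stress granule members, Tia1 and Tial1 encode related proteins that bind U-rich RNA and regulate splicing in the nucleus and translation in the cytoplasm. Tia1 was at 157, 69.3 and 89.5 CPM in cKO 1, cKO 2 and cKO 3, against 96.4, 105 and 93.6 CPM in the WT libraries. As for Ewsr1, cKO 1 was above every WT library and both batch 1 cKO libraries were below every WT library. With the batch term the log2 fold change was 0.67 (standard error 0.143, 95% interval 0.34 to 1.01, edgeR adjusted p = 0.0274), so that Tia1 rose in cKO 1. With genotype only it was 0.10 (95% interval -0.55 to 0.74, edgeR adjusted p = 0.798), and without cKO 1 it was -0.33 and passed in the other direction (edgeR adjusted p = 0.0397). The direction of Tia1 thus rested on which cKO mice were compared with WT, and with the batch term the call also needed all 3 WT libraries (edgeR adjusted p between 0.0648 and 0.0746 without WT 1, WT 2 or WT 3).

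Tial1 was at 100.8, 66.5 and 68.8 CPM in the cKO libraries, against 107, 110.1 and 105 CPM in the WT libraries. All cKO libraries were below all WT libraries, although cKO 1 was close to the lowest WT library. With the batch term its log2 fold change was -0.09 (standard error 0.0879, 95% interval -0.30 to 0.11, edgeR adjusted p = 0.487) and -0.45 (95% interval -0.86 to -0.04, edgeR adjusted p = 0.0804) with genotype only. Without cKO 1 it was -0.69 (edgeR adjusted p = 0.000155).

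Atxn2 encodes ataxin-2, a protein of stress granules and of translational control that modifies TDP-43 toxicity in yeast and flies. It was at 158, 246 and 235 CPM in cKO 1, cKO 2 and cKO 3, against 145, 156 and 132 CPM in the WT libraries. The groups did not overlap, but cKO 1 was above the highest WT library by a margin smaller than the gaps between WT libraries, while cKO 2 and cKO 3 were at 170.5% and 163% of the WT mean. The log2 fold change was 0.13 (standard error 0.111, 95% interval -0.13 to 0.39, edgeR adjusted p = 0.439) with the batch term and 0.56 (95% interval 0.13 to 0.99, edgeR adjusted p = 0.0494) with genotype only. The genotype-only call was lost without any 1 of the WT libraries, cKO 2 or cKO 3 (edgeR adjusted p between 0.110 and 0.157). Among the members, Atxn2 was the only one called higher with genotype only, and its levels were highest in the libraries in which Tardbp was lowest.

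G3bp1 encodes a protein on which stress granule assembly depends, and in human cells TDP-43 stabilizes its messenger RNA. It was at 189, 176 and 192 CPM in the cKO libraries, against 169, 162 and 172 CPM in the WT libraries. All cKO libraries were above all WT libraries, by small amounts, and the 3 cKO libraries were close to each other whatever their batch. The log2 fold change was 0.18 (standard error 0.0947, 95% interval -0.05 to 0.40, edgeR adjusted p = 0.225) with the batch term and 0.15 (95% interval -0.10 to 0.40, edgeR adjusted p = 0.296) with genotype only. G3bp1 did not pass under any of the 24 alternatives, in which the log2 fold change ran from 0.12 to 0.20.

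The G3bp1 transcript held 46 TGTGTG matches, all in exon 12, and 0.333% of the 15637 canonical transcripts held at least as many. The gene lies on chromosome 11 from 55360166 to 55395670 on the plus strand of GRCm39, and its last exon of 5380 bases contains a TG run of 52 bases. A stretch of 30 bases from that run, at chr11:55391846-55391875, is printed because it is the feature that sets this transcript apart from the other members, with the matched letters in capitals.
G3bp1 last exon: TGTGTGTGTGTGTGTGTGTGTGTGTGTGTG
Of the other transcripts Tia1 held 4 matches, Matr3 and Tial1 2 each, Atxn2 1, and Ewsr1 and Taf15 0, where the median transcript held 2. A count of 0 says only that the letters are not in that transcript.

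**Figure D2:**
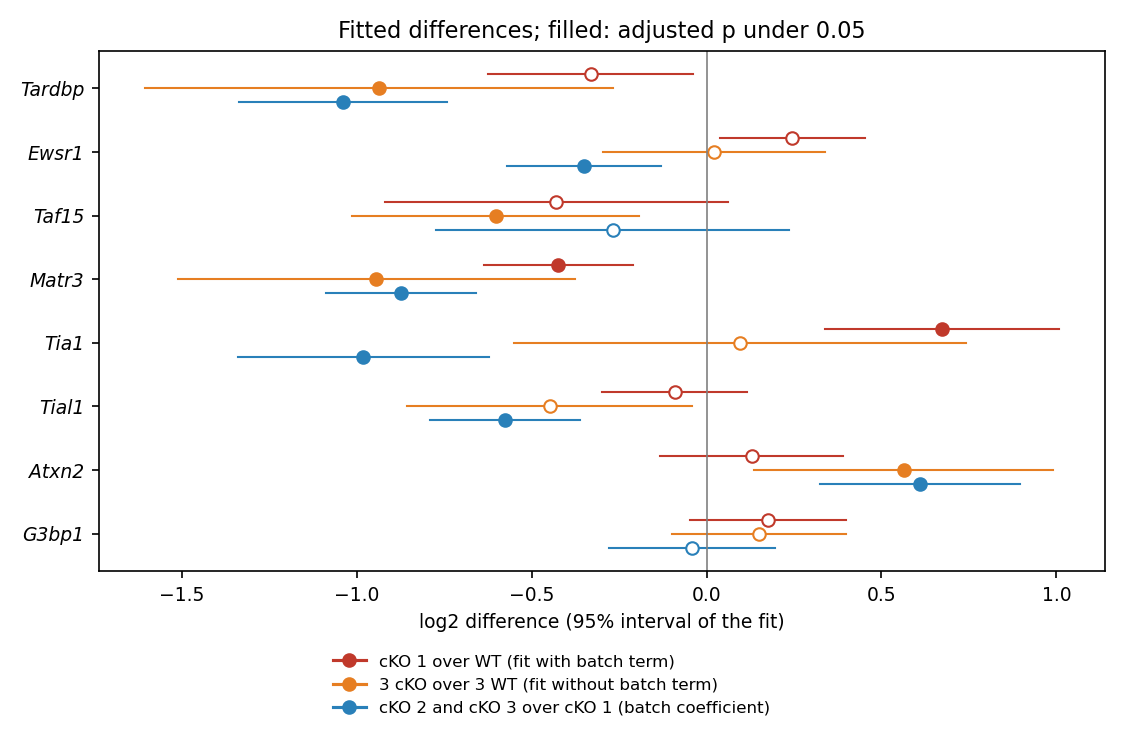
Log2 differences of the 8 genes with their 95% intervals: cKO 1 over WT (fit with batch and genotype), the 3 cKO over the 3 WT libraries (genotype only), and cKO 2 and cKO 3 over cKO 1 (batch term). Filled points have an edgeR adjusted p under 0.05. For Tia1 the first value is 0.67 and the last is -0.98, while for G3bp1 the 3 values are 0.18, 0.15 and -0.04.

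The cKO libraries were then compared among themselves, by the batch term. Of the 8 members, 6 differed between the batch 1 cKO libraries and cKO 1, against 32% of all genes. The 5 lower ones, against 16.2% of all genes, were Tardbp (-1.04 on the log2 scale, 95% interval -1.34 to -0.74), Ewsr1 (-0.35), Matr3 (-0.87), Tia1 (-0.98) and Tial1 (-0.58). Atxn2 was the 1 higher member (0.61, 95% interval 0.32 to 0.90), against 15.8% of all genes. For Taf15 the difference was -0.27 (95% interval -0.77 to 0.23, edgeR adjusted p = 0.378) and for G3bp1 -0.04 (95% interval -0.28 to 0.20, edgeR adjusted p = 0.791). Batch 1 holds only these 2 mice, so batch and mouse cannot be told apart in these differences. The genotype and batch terms share cKO 1, which enters them with opposite signs.

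Per kb of annotated exon, the levels of the 8 genes spanned a wide range, and the order differed between the groups. In cKO testes Ewsr1 was highest at 33.3 ± 4.84 CPM per kb, followed by Taf15 at 27.8 ± 5.17, Matr3 at 25.4 ± 9.54, Tardbp at 21.5 ± 9.82 and G3bp1 at 18.3 ± 0.846 CPM per kb (SD, n = 3). Atxn2 at 13.6 ± 3.07, Tia1 at 6.53 ± 2.84 and Tial1 at 5.76 ± 1.40 CPM per kb were lowest in cKO testes. In WT testes Matr3 was highest at 48.8 ± 2.00 CPM per kb, followed by Taf15 at 42.2 ± 6.02, Tardbp at 41.2 ± 1.43, Ewsr1 at 32.8 ± 1.45 and G3bp1 at 16.5 ± 0.533 CPM per kb. Atxn2 at 9.18 ± 0.768, Tial1 at 7.86 ± 0.178 and Tia1 at 6.11 ± 0.371 CPM per kb followed. In the cKO order the SD ranges of neighbours overlapped among the first 5 genes and between Tia1 and Tial1, and in the WT order they overlapped for Taf15 with Matr3 and with Tardbp. The exon length is the union over all annotated transcripts, so genes with many annotated exons have a lower value per kb.

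The search for genes like Tardbp covered 9307 genes that averaged at least 4 on the log2 CPM scale, without loci named Gm, Rik or LOC. Among them, the log2 CPM of Fbxo8, Lcorl, Ift81, Zfp830 and Vps54 followed that of Tardbp most closely over the 6 libraries. Pearson r was between 0.998 and 0.999 for these genes. The values of these genes come from the same 6 libraries, with the same batches, so this likeness is a description of these libraries. Lcorl, for example, was at 34.8, 14.3 and 17.3 CPM in cKO 1, cKO 2 and cKO 3, against 41.8, 43.0 and 41.8 CPM in the WT libraries.

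The paralogs of the stress granule members were named after their values were seen. Atxn2l, the paralog of Atxn2, was at 241, 372 and 344 CPM in the cKO libraries, against 213, 234 and 191 CPM in the WT libraries. As for Atxn2, the groups did not overlap and cKO 2 and cKO 3 were the highest, and the log2 fold change was 0.18 with the batch term (edgeR adjusted p = 0.335) and 0.58 with genotype only (edgeR adjusted p = 0.0434). G3bp2, the paralog of G3bp1, was at 407, 329 and 349 CPM in the cKO libraries, against 477, 462 and 442 CPM in the WT libraries. Its groups did not overlap either, with the cKO libraries lower, and the log2 fold change was -0.18 with the batch term (edgeR adjusted p = 0.215) and -0.35 with genotype only (edgeR adjusted p = 0.0649).

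Whole testis was sequenced, so fewer cells of a type and less RNA per cell cannot be told apart. Levels of cell type markers also differed between the cKO and WT libraries. The summed level of 9 markers of preleptotene to zygotene spermatocytes, the early cells of meiosis, was 252, 125 and 55.7 CPM in cKO 1, cKO 2 and cKO 3, against 1199, 1651 and 1279 CPM in the WT libraries, and 9 of 9 were lower by edgeR. The sum of 9 Sertoli cell markers was 7097, 12592 and 13405 CPM in the cKO libraries, against 5413, 4899 and 5521 CPM in WT. Of the 9, 6 were higher and 1 was lower. Most of this sum was Clu, at 4560, 8671 and 9274 CPM in the cKO libraries, against 3562, 3225 and 3618 CPM in WT. The lower marker was Gata1, at 41.1, 77.3 and 63.6 CPM in the cKO libraries, against 57.4, 67.7 and 62.8 CPM in WT. The 5 markers of differentiating spermatogonia summed to 195, 187 and 115 CPM in the cKO libraries, against 444, 499.8 and 485 CPM in WT, with 3 lower. The list includes Stra8, which the paper uses as a marker of preleptotene spermatocytes. Stra8 was at 52.7, 31.9 and 11.7 CPM in the cKO libraries, against 160, 202 and 185 CPM in WT. By protein staining, the paper reports intact preleptotene cells with Stra8 in cKO mice. The sums of the spermatocyte and differentiating spermatogonia lists were lowest and the Sertoli sum highest in the batch 1 cKO libraries. There Tardbp, Matr3 and Tial1 were lowest and Atxn2 highest. Between cKO 1 and cKO 2 the differentiating spermatogonia sum hardly differed. Within batch 1 both of these germ cell sums were lower in cKO 3, while Tardbp was lower in cKO 2. Not every marker followed the order of the sums. Dmrtb1, at 14.6, 19.9 and 6.26 CPM in cKO 1, cKO 2 and cKO 3, was highest in cKO 2 among these. Kit, Sohlh1, Prdm9, Tex101 and Meiob were also higher in cKO 2 than in cKO 1. These marker calls are from the fit with the batch term, in which 9.24% of all genes were lower and 6.91% higher. With genotype only 7 of the Sertoli markers were higher and none lower. In that fit 9 of the spermatocyte and 4 of the differentiating spermatogonia markers were lower and none higher, where 16.7% of all genes were lower and 17.1% higher. The part of cell composition in the members' differences was not tested. None of these 23 markers was at 0 in all libraries.

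**Figure D3:**
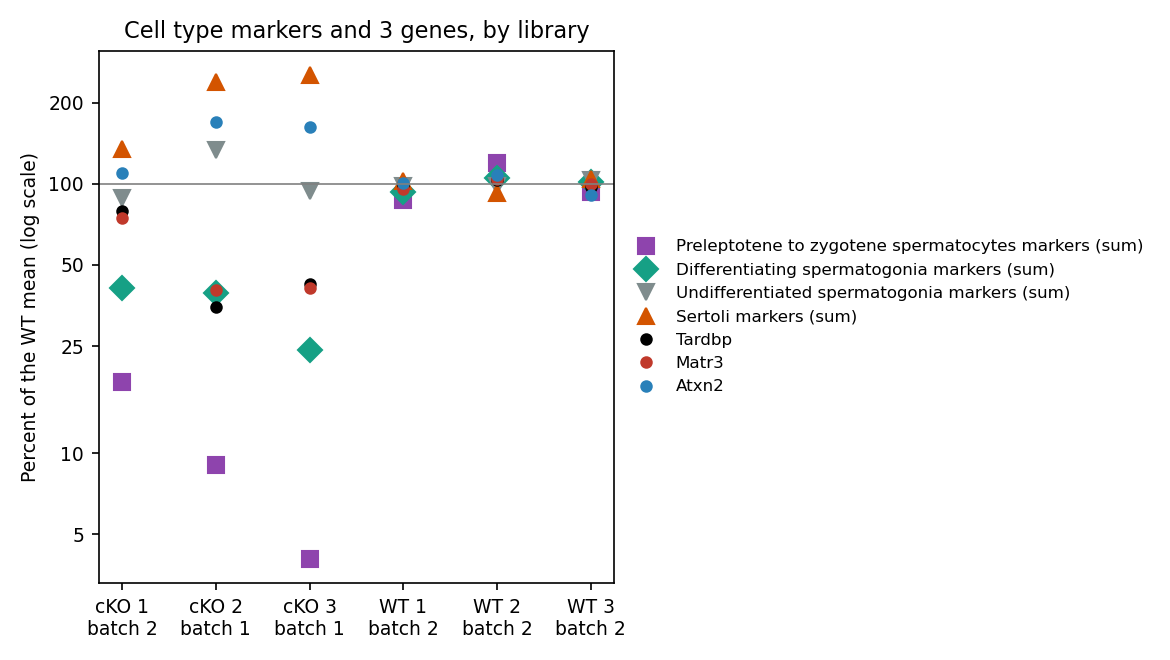
Summed level of 4 marker lists and the level of Tardbp, Matr3 and Atxn2 in each library, as a percent of the WT mean on a log axis, with the batch under each library. The cKO libraries of batch 1 lie farther from the WT mean than cKO 1 for Tardbp (34.8% and 42.5%, against 79.5%), Matr3 and Atxn2, and for the Sertoli and spermatocyte markers.

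In the remaining marker lists few genes passed with the batch term, where 9.24% of all genes were lower and 6.91% higher. Of 8 markers of undifferentiated spermatogonia 1 was higher and none was lower. Their sum was 305, 460 and 324 CPM in cKO 1, cKO 2 and cKO 3, against 337 to 356 CPM in WT libraries. It was thus highest in cKO 2, where Tardbp was lowest. Of 6 pachytene markers 3 were tested and none passed, and none of the 5 spermatid markers reached the filter. Of 6 Leydig cell markers 1 was higher, with a median log2 fold change of 0.73. The cKO and WT libraries were apart for only 1 of these 6. Of 5 endothelial markers 1 was higher, with a median of 0.49, where the Sertoli median was 0.44. None of 4 peritubular myoid, 5 macrophage or 5 red blood cell markers passed. With genotype only the medians were 0.27 for Leydig, 0.66 for endothelial and 0.72 for Sertoli markers. In that fit 16.7% of all genes were lower and 17.1% higher. Of the undifferentiated spermatogonia markers 3 were higher and 1 lower, and 2 pachytene and 1 myoid marker were lower. Higher were 1 Leydig, 3 endothelial and 2 macrophage markers.

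The wider groups to which the 8 genes belong were described by counts and medians over hand-written lists that exclude the members. Of 32 other stress granule genes 5 were lower and 1 was higher with batch and genotype in the model, where 9.24% and 6.91% of all genes were, and the median log2 fold change was -0.04. Among the lower genes were Fmr1, Eif4e, Stau1 and Ythdf2. Fmr1, the gene of the translational repressor FMRP, was at 148, 86.5 and 86.9 CPM in the cKO libraries, against 266, 285 and 255 CPM in the WT libraries, and its log2 fold change was -0.86 (edgeR adjusted p = 0.0140) with the batch term and -1.32 (edgeR adjusted p = 0.0117) with genotype only. The higher gene was Rbms1, which encodes a binder of single-stranded RNA and DNA, at 93.7, 60.2 and 80.1 CPM in the cKO libraries, against 54.2, 54.0 and 56.3 CPM in the WT libraries, with a log2 fold change of 0.77 (edgeR adjusted p = 0.0214). It did not pass with genotype only (0.51, edgeR adjusted p = 0.0517).

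Stress granules form downstream of the phosphorylation of eIF2alpha. Of 15 genes of this step 4 were lower and 1 was higher, against 9.24% and 6.91% of all genes, with a median of -0.08. Eif2s1, which encodes eIF2alpha itself, was at 113, 46.8 and 48.8 CPM in the cKO libraries, against 174, 170.5 and 175 CPM in the WT libraries, and its log2 fold change was -0.61 (edgeR adjusted p = 0.0152) with the batch term and -1.31 (edgeR adjusted p = 0.0246) with genotype only. Eif2b3, a subunit of the exchange factor of eIF2, had a log2 fold change of -0.92 (edgeR adjusted p = 0.0152). Eif2ak2, the kinase PKR, which phosphorylates eIF2alpha, was higher in all cKO libraries, at 54.5, 49.5 and 52.8 CPM, against 36.4, 37.1 and 39.1 CPM in the WT libraries, with a log2 fold change of 0.54 (edgeR adjusted p = 0.0209).

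Of 14 genes of proteins of paraspeckles, nuclear bodies that hold partners of MATR3, 1 was lower and 1 was higher. Among all genes 9.24% were lower and 6.91% higher, and the median of the list was -0.13. Sfpq, a core paraspeckle protein gene, was at 905, 1026 and 1061 CPM in the cKO libraries, against 668, 597 and 641 CPM in the WT libraries. All cKO libraries were above all WT libraries, and the log2 fold change was 0.51 with the batch term (edgeR adjusted p = 0.0203) and 0.65 with genotype only (edgeR adjusted p = 0.0133). Cirbp, the cold-inducible RNA-binding protein gene, fell by 0.41 on the log2 scale (edgeR adjusted p = 0.0381), and for Nudt21, a cleavage factor subunit gene, the value was -0.45 (edgeR adjusted p = 0.0560), which passed with genotype only (-0.38, edgeR adjusted p = 0.0488).

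TDP-43 associates with the microprocessor, which cuts microRNA precursors. Of 16 genes of the microprocessor and of Argonaute function 2 were lower and 1 was higher. The shares over all genes were 9.24% and 6.91%, and the median of the list was -0.15. Ago4 was lower (-1.23 on the log2 scale, edgeR adjusted p = 0.0209), as was Drosha, the nuclear ribonuclease gene (-0.41, edgeR adjusted p = 0.0455), while Ago2, the gene of the slicing Argonaute, was higher (0.53, edgeR adjusted p = 0.0448). With genotype only Drosha did not pass (-0.35, edgeR adjusted p = 0.0515), and the value of Ago2 was 1.202 (edgeR adjusted p = 0.0160). Ago2 was at 44.7, 77.8 and 91.2 CPM in the cKO libraries, against 32.9, 32.4 and 27.6 CPM in the WT libraries, and as for Atxn2 the batch 1 cKO libraries were the highest.

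Of 23 splicing regulators 1 was lower and 4 were higher, against 9.24% and 6.91% of all genes, with a median of 0.06. The muscleblind genes, whose products control developmental splicing, went in both directions: Mbnl3 was lower (-1.18, edgeR adjusted p = 0.0152), while Mbnl2 (0.56, edgeR adjusted p = 0.0265) and Mbnl1 (0.43, edgeR adjusted p = 0.0303) were higher. With genotype only Mbnl1 did not pass (0.13, edgeR adjusted p = 0.539). For Mbnl1 the groups overlapped, with 186, 127 and 139 CPM in the cKO libraries, against 143, 138 and 131 CPM in the WT libraries, and as for Tia1 only cKO 1 was above the WT range. Of 15 genes described in other cells as regulated by TDP-43, 3 were lower and 1 was higher, against the same shares, with a median of -0.11. Fnip1 (-0.88, edgeR adjusted p = 0.0152) and Usp15 (-0.54, edgeR adjusted p = 0.0179) were lower and Tnik was higher (0.57, edgeR adjusted p = 0.0193).

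**Figure D4:**
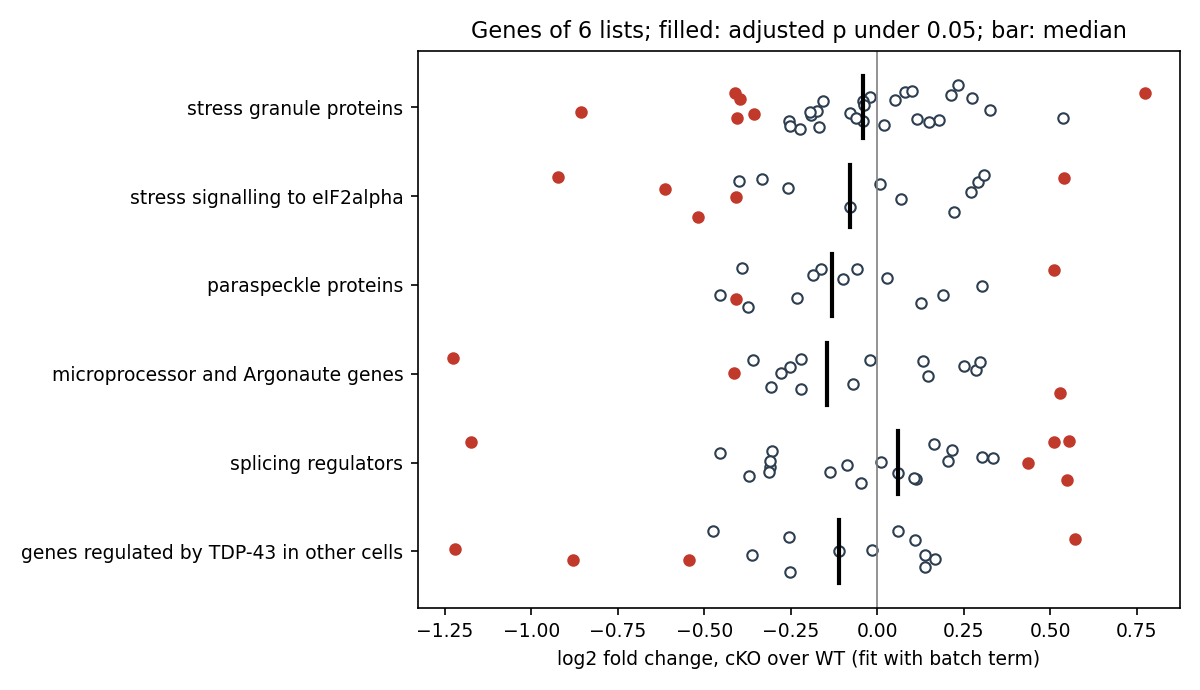
Log2 fold change of each tested gene of 6 lists, cKO over WT from the fit with batch and genotype, with filled points for an edgeR adjusted p under 0.05 and a bar for the median. The medians lie between -0.15 and 0.06, and each list holds genes on both sides of 0.

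With genotype only, 7 of the 32 stress granule genes were lower and 3 higher, 6 and 3 of the 15 eIF2alpha genes, 4 and 2 of the 14 paraspeckle genes, 2 and 3 of the 16 microprocessor and Argonaute genes, 4 and 5 of the 23 splicing regulators, and 4 and 4 of the 15 genes regulated in other cells, where 16.7% of all genes were lower and 17.1% higher. With the batch term, no gene of any of the 6 lists passed without WT 2, where 12 of all 16632 genes passed. Without WT 1, 1 of the stress granule genes was lower and none higher, where 527 of all genes were lower and 328 higher. Without WT 3 the stress granule counts were the same, where 218 of all genes were lower and 206 higher. Without cKO 1, in the comparison of the batch 1 cKO libraries with WT, 16 stress granule genes were lower and 10 higher, where 31.7% of all genes were lower and 30.1% higher.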

How the data were processed

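The authors made stranded poly(A) libraries from whole testis, demultiplexed them with bcl2fastq 2.20 and quantified the trimmed reads with Salmon 1.2.0 against the NCBI mouse transcriptome with GRCm39 as decoy; the strand setting is not given in the sources used here. The deposited table holds expected counts per gene. The authors estimated them from transcript counts with tximport, as bias-corrected counts without an offset. The deposited log2 values are log2 CPM with TMM normalization by the authors. Also named in the submitters' processing notes are limma 3.46.0, edgeR 3.32.1 and R 4.0.4.

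Expected counts were rounded, genes with at least 0.5 CPM in at least 3 libraries were kept, and edgeR 4.0.16 (quasi-likelihood test, R 4.3.3) was fitted with batch and genotype over 16632 genes, with adjustment by Benjamini-Hochberg at 0.05. The script was tested on simulated data. Alternatives were a fit without the batch term, batch 2 alone, limma 3.58.1 (trend, voom and the deposited log2 values), DESeq2 1.42.0, other scalings and filters, a replicate block, and leaving out each library. Libraries held 30028685 to 43371284 counts.

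The 8 members were chosen by name, and the members, the 6 gene lists and the marker lists were chosen with earlier results of these data known. Other genes named are the 3 of each list with the smallest p and the 5 whose profile was most like that of Tardbp. These 5 were sought among genes averaging at least 4 on the log2 CPM scale, without loci named Gm, Rik or LOC. Exceptions, named after their values were seen, are Atxn2l, G3bp2, Eif4e, Stau1, Ythdf2, Clu, Gata1, Stra8, Dmrtb1, Kit, Sohlh1, Prdm9, Tex101 and Meiob. An item under this rule counts towards its list but is not reported here. Positions, exons and sequences are from the GRCm39 genome with GENCODE vM39 annotation, where the symbols of 15637 tested genes were matched. Figures were drawn with matplotlib 3.10.9. Protein sequences were not used here.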

Additional observations from a re-analysis of the deposited data

Results flagged for a closer look

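For 6 of the 8 genes the effect in the batch 1 cKO libraries (cKO 2 and cKO 3) differed from the effect in cKO 1 by a test of the difference itself, the batch term of the edgeR model. Both effects are measured against the same 3 WT libraries, so the test compares cKO libraries only, and batch and mouse cannot be told apart. On the log2 scale, cKO 2 and cKO 3 minus cKO 1, the difference was -1.04 for Tardbp (edgeR adjusted p = 0.00181), -0.87 for Matr3 (edgeR adjusted p = 0.00126) and -0.98 for Tia1 (edgeR adjusted p = 0.00391). It was -0.58 for Tial1 (edgeR adjusted p = 0.00414) and -0.35 for Ewsr1 (edgeR adjusted p = 0.0264). For Atxn2 it was 0.61 (edgeR adjusted p = 0.00940). In Tardbp, Matr3, Tial1 and Atxn2 all 3 cKO libraries lay on the same side of the WT range and the batch 1 libraries lay farther from it. In Ewsr1 and Tia1 cKO 1 lay above the WT range and both batch 1 libraries lay below it. Of all tested genes 32% differed in the same way. The values of the 6 genes kept their direction and passed in limma-trend, DESeq2, both other scalings and both other filters.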

How the results depend on the processing

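The direction of Tardbp was kept in all 24 alternatives, among which the fit without cKO 1 is the same with and without the batch term. Every cKO library was below every WT library for Tardbp, so leaving out a library or the batch term could not turn it. The log2 fold change of Tardbp passed at -0.94 without the batch term and at -0.33 in DESeq2. In the batch 2 libraries alone it was -0.32. With the batch term it stayed at -0.33 without cKO 2 or cKO 3. Leaving these out cannot change it, since the genotype term is cKO 1 against WT. It ran from -0.35 to -0.30 when each WT library was left out, and was -1.39 without cKO 1. Without the batch term 3 members were lower and 5624 genes passed. In batch 2 alone 2 members were lower and 4178 genes passed. In DESeq2 2 members were lower and 2 higher, and 3856 genes passed. When each library was left out, 0 to 5 members were lower and 0 to 1 higher, and without the batch term 0 to 6 members passed in all. With the batch term 12 genes (without WT 2) to 4143 genes (without cKO 3) passed, and without cKO 1 10286 passed. Without the batch term 627, 1 and 430 genes passed without WT 1, WT 2 and WT 3. The cause was not tested. Without cKO 1 the direction turned for Ewsr1 (-0.12) and Tia1 (-0.33), since that fit compares cKO 2 and cKO 3 with WT in place of cKO 1.

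Whether the replicate numbers pair the samples cannot be settled here. Deviations of same-numbered libraries from their group means correlated at -0.10, -0.06 and 0.01, and those of differently numbered libraries at -0.13 to 0.18. Each mean is over 3 libraries and the cKO deviations hold the batch difference, so these values cannot show or exclude pairing. With the replicate block and no batch term the Tardbp value was -1.03, 3 members were lower and 0 higher, and 4285 genes passed. With the replicate block and the batch term 0 members were lower and 0 higher, and 1217 genes passed. Without cKO 1 no batch term could be fitted. G3bp1 was called in none of the 24 alternatives.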
